A study of Saccharomyces cerevisiae with 10 samples.

Results

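The 291 yeast genes described here lie on chromosome XI, 195 on the left arm and 96 on the right arm, out of 5706 genes named on the arrays. They are the genes whose systematic name begins with YK (YKL for the left arm, YKR for the right), taken in order along the chromosome. Ribosomal protein genes, identified by symbols beginning RPL, RPS, MRP or RSM, and STE6 were left out, which removed 14 of the 305 chromosome XI genes on the arrays. The annotation lists 318 protein-coding genes for this chromosome. A value on at least 8 of the 10 arrays was required for a test, and 264 members met this, 174 on the left arm and 90 on the right. Of the 27 that did not, 18 had no value on any array.

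The study used mutation-accumulation lines of Saccharomyces cerevisiae (5 in all, named MA-A0 and MA-A1, MA-A3 and MA-A4, and MA-A8), whose total RNA was set line against line on 10 arrays with Cy5 and Cy3. Every line met every other line on 1 array and so lay on 4. The labels name no ancestor, strain background, ploidy, medium or number of transfers, nor whether a line's 4 hybridisations used separate cultures. Errors and p-values therefore measure the spread between hybridisations, which may be technical, and the number of arrays limits the precision.

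In a mutation-accumulation experiment a strain is passed through repeated single-cell bottlenecks, so that most mutations are kept with little selection. Gains and losses of whole chromosomes are among the changes such lines can collect. In budding yeast the transcripts of an extra chromosome generally increase along its whole length, while other chromosomes keep their level, so the median over a chromosome's genes is a common readout of its dosage. A regulatory change in contrast usually touches genes scattered over many chromosomes. Chromosome XI carries genes of many unrelated functions, among them the respiratory activator HAP4, the stress regulator MSN4, the glycolytic enzymes GPM1 and FBA1 and cell wall proteins of the PIR and CWP families.

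Each value was taken as log2 of Cy5 over Cy3. The deposited table states no base or direction, natural logarithms were not excluded, and with the opposite direction every sign below would turn. The estimate of a gene in a line is its value in that line minus the mean of the other 4 lines, in log2 units. A shift in one line therefore enters each other line in diluted form with the opposite sign, by construction. The arrays were checked against one another: the values of MA-A0 against MA-A8 correlated at -0.14 with those predicted from the other 9 arrays (across 5126 genes, which are not independent), whereas the other arrays had correlations of 0.24 to 0.74. Of the 512 ways to turn the signs of the arrays, the labelled one left the 2nd lowest residual sum of squares (1568), and the lowest (1429) was reached by exchanging the lines of this array alone. Its lines may therefore be exchanged, which would turn its values below, and the fit kept them as labelled. Counts that move by more than 1.5 times without an array are given with that array named.

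Chromosome XI transcripts were higher in MA-A1 than in the other lines by a small amount that ran along the whole chromosome. The members had a median estimate of 0.14 in MA-A1, against -0.01 for the genes on the other 15 nuclear chromosomes, a difference of 0.15, or 1.11-fold if the base is 2. In MA-A1 217 of the 264 members (82.2%) lay above 0, with estimates rounded to 10 decimals, against 48.1% of the 5120 genes elsewhere, and the quartiles of the members were 0.04 and 0.23. The chromosome was selected on this MA-A1 shift, seen earlier in the same data, so the MA-A1 values are a description and no test is given for them. The median standard error of a member's estimate was 0.11, close to the size of the shift.

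The same difference between chromosome XI and the other chromosomes was smaller in size and below 0 in the remaining lines. A shift in MA-A1 enters their estimates with the opposite sign by construction. It was -0.01 in MA-A0, -0.03 in MA-A3, -0.05 in MA-A4 and -0.03 in MA-A8. Among the 16 nuclear chromosomes chromosome XI had the 2nd highest median in MA-A1, after chromosome XII at 0.30. It ranked between 11th and 14th from the top in the other lines. The 12 chromosomes other than IX, XI, XII and XIII, called unshifted here, spanned -0.05 to 0.01 in MA-A1. These 12 were set apart with results of these data known, so their narrow span follows in part from that choice. Chromosome XI lay below all 12 in MA-A0, MA-A4 and MA-A8, where their lowest medians were -0.004, -0.009 and -0.010. In MA-A3 it lay within their span. The chromosome XI shift was smaller than those of the 3 chromosomes that stood apart most in this series, chromosome XIII in MA-A3 (0.57), chromosome XII in MA-A1 and chromosome IX in MA-A4 (-0.26).

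**Figure D1:**
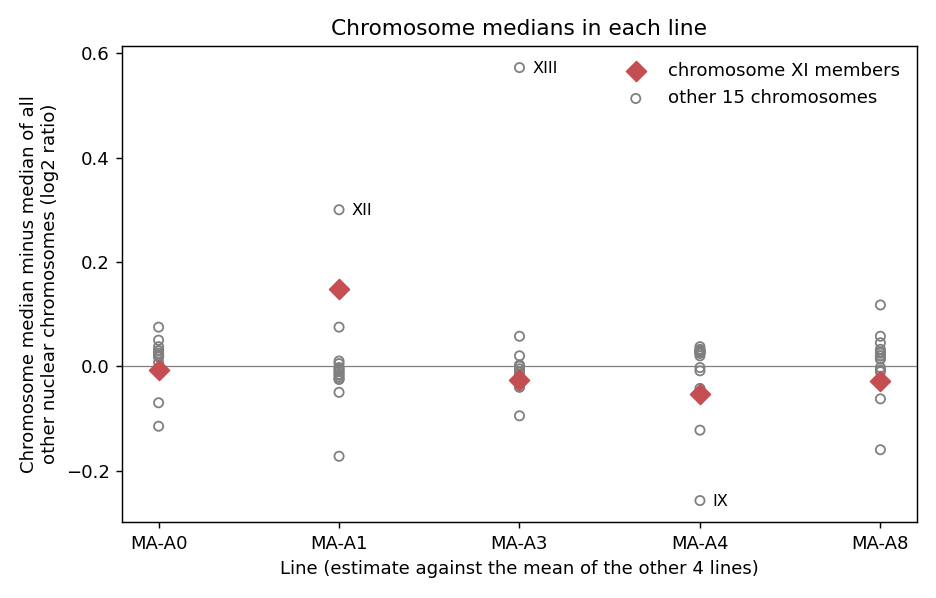
Median estimate of each chromosome's genes minus the median of the genes on all other nuclear chromosomes (vertical axis, log2 ratio) in each of the 5 lines (horizontal axis), with chromosome XI members as filled diamonds and the other 15 chromosomes as open circles. Chromosome XI lies at 0.15 in MA-A1, below only chromosome XII at 0.30, and between -0.05 and -0.01 in the other 4 lines.

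Single arrays showed how far the shift varied. In MA-A1 the chromosome XI median exceeded that of the other chromosomes by 0.05 over MA-A0, 0.11 over MA-A3, 0.19 over MA-A4 and 0.22 over MA-A8, a mean of 0.14 ± 0.08 (SD, n = 4 arrays). All 4 arrays lay above 0, and the array with MA-A0 gave the smallest value. On that array 60.6% of the members were above 0, against 49.1% of the genes elsewhere. The shares on the arrays with MA-A3, MA-A4 and MA-A8 were 65.5%, 83.3% and 73.0%.

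The value over MA-A0 was within the range of the 12 unshifted chromosomes on the same array, which reached 0.085. The other 3 arrays placed chromosome XI above all 12, whose highest medians were 0.08, 0.08 and 0.04 on the arrays with MA-A3, MA-A4 and MA-A8. Chromosome XII exceeded chromosome XI on each of the 4 arrays, at 0.30, 0.42, 0.23 and 0.24 over MA-A0, MA-A3, MA-A4 and MA-A8.

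The 6 arrays without MA-A1 showed little difference between chromosome XI and the rest. The differences were 0.03, 0.04 and 0.01 for MA-A0 over MA-A3, MA-A4 and MA-A8, -0.01 and 0 for MA-A3 over MA-A4 and MA-A8, and -0.025 for MA-A4 over MA-A8. Each of these 6 values is smaller in size than the smallest value with MA-A1. Over their 4 arrays the other lines averaged 0.01 ± 0.04 (MA-A0), -0.04 ± 0.05 (MA-A3), -0.06 ± 0.09 (MA-A4) and -0.05 ± 0.11 (MA-A8) (SD, n = 4 each). The lowest array of each of these 4 lines was the one shared with MA-A1.

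**Figure D2:**
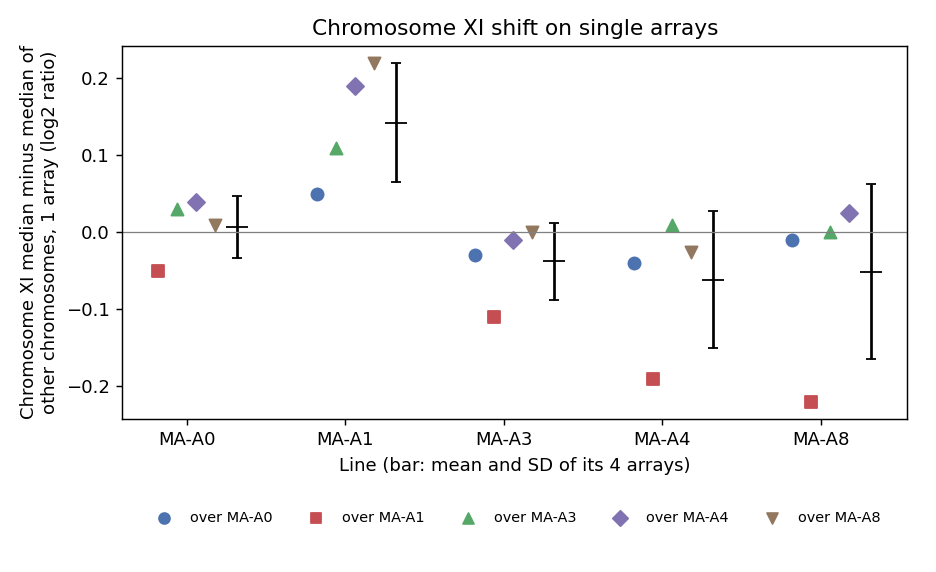
Chromosome XI median minus the median of the other chromosomes on each single array (vertical axis, log2 ratio), arranged by line (horizontal axis), with a symbol for the partner line and a bar for the mean and SD of the 4 arrays. Each array appears once for each of its 2 lines, and the 4 MA-A1 values, 0.05 to 0.22, lie above the values of every array without MA-A1.

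In the fit over all arrays chromosome XI stood out in the pairs with MA-A1. The fitted difference between MA-A1 and another line, chromosome XI minus the other chromosomes, was 0.14 over MA-A3, 0.17 over MA-A4 and 0.14 over MA-A8, and it was -0.12 for MA-A0 minus MA-A1. The 6 pairs that do not include MA-A1 lay between -0.04 and 0.04. These pairs share arrays and lines and are not independent of one another.

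Both arms were higher in MA-A1. Left arm members stood 0.16 above the other chromosomes and right arm members 0.14, with 145 of 174 left members (83.3%) and 72 of 90 right members (80%) above 0. The left minus right difference of 0.02 was small beside the spread of that difference over the 4 MA-A1 arrays, which ran from -0.145 to 0.095 (SD 0.10). The arms differed more on some arrays. MA-A1 over MA-A0 gave 0.02 for the left arm and 0.165 for the right, MA-A1 over MA-A3 gave 0.145 and 0.05, and the arrays with MA-A4 and MA-A8 gave 0.19 for both arms and 0.22 and 0.215.

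In the other lines the left minus right differences also stayed within 1 SD over the arrays. They were 0.00 in MA-A0 (SD 0.17), -0.03 in MA-A3 (SD 0.07), 0.02 in MA-A4 (SD 0.06) and 0.04 in MA-A8 (SD 0.13). The array that disagreed with the rest, MA-A0 over MA-A8, had the widest gap, -0.07 on the left arm and 0.15 on the right. Left and right arm members are not evenly placed in the table: 148 left members lie in the 8 of 16 blocks of 484 probe rows that hold no right arm member, and 26 in the other 8. An arm difference on an array therefore cannot be told apart from a difference between these blocks.

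In bins of 15 neighbouring tested members, all 18 bins (the last of 9 members) lay above 0 in MA-A1. The lowest was 0.03 for the bin from the co-chaperone gene SBA1 to CWP1 on the left arm, where 8 of 15 members were above 0. The highest was 0.30 for the 9 members from UBP11 to GEX2 at the right end, with 9 of 9 above 0. Of the 18 bins 14 exceeded 0.096, the 95th percentile of 270 bins of 15 on the 12 unshifted chromosomes. On those chromosomes 38.5% of bins were above 0. As the MA-A1 values chose the chromosome, this count describes the shift and is not a test of it. The last bin, of 9 members, is set against bins of 15. In MA-A0, MA-A3, MA-A4 and MA-A8 only 3 to 6 of the 18 bins were above 0 and 0 exceeded the 95th percentile of the 270 bins in that line.

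The profile along the chromosome in MA-A1 was uneven. Low bins lay on both arms, at 0.075 from PIR1 to SDH3, 0.03 from SBA1 to CWP1 and 0.06 from RSC4 to DBP7. The first bin at the left end, from PAU16 to EMC3, was at 0.20, and the bin that spans the centromere, from PUT3 to MEH1, at 0.22. The high bin at the right end holds genes of near-identical subtelomeric families such as GEX2 and VBA5, whose probes may also read copies on other chromosomes.

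**Figure D3:**
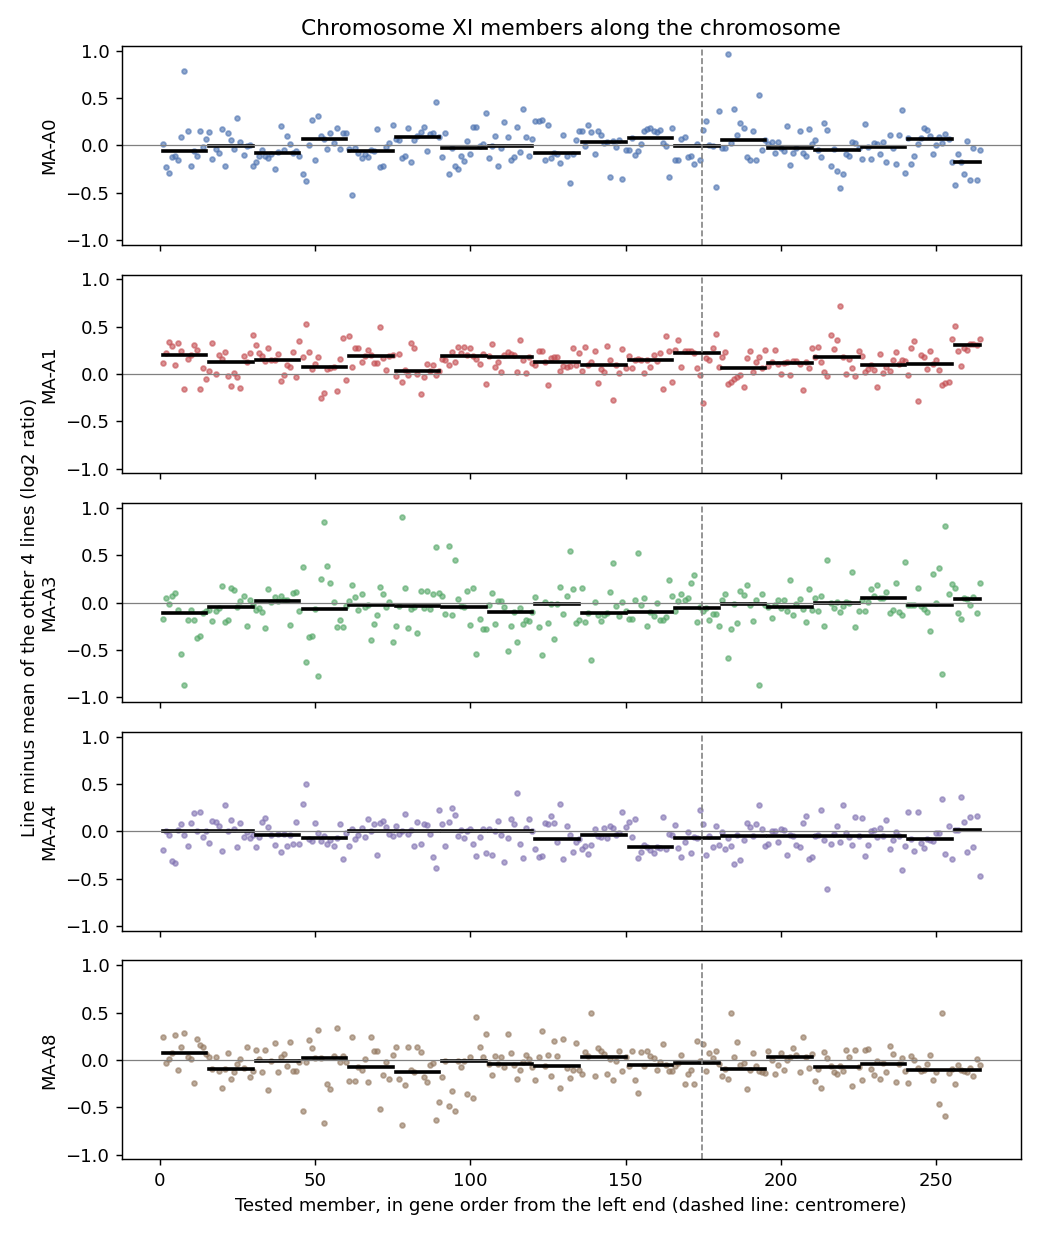
Estimates of the 264 tested members in gene order from the left end (horizontal axis, dashed line at the centromere) in each line (vertical axes, line minus the mean of the other 4 lines, log2 ratio), with black bars for the medians of bins of 15 members. All 18 bins are above 0 in MA-A1, between 0.03 and 0.30, while in the other 4 lines 3 to 6 bins are above 0.

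At the ends and the centre single members followed the chromosome loosely. PAU16, a member of the seripauperin family at the left end, was at 0.12 ± 0.10 in MA-A1 (SE), and VBA5, a permease gene near the right end, at 0.30 ± 0.15. Left of the centromere the ESCRT gene DID4 was at 0.06 ± 0.11 and MET14, which encodes adenylylsulphate kinase of sulphate assimilation, at -0.01 ± 0.11. Right of it the poly(A) polymerase gene PAP1 was at 0.17 ± 0.10.

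VPS1, next to the centromere on the right arm, went furthest against the chromosome in MA-A1. It encodes a dynamin-related GTPase of vacuolar and endocytic transport, and its estimate there was -0.30 ± 0.09, the lowest of the members with values on all 10 arrays. It was at -0.29 over MA-A0, -0.36 over MA-A3, -0.08 over MA-A4 and -0.49 over MA-A8. All 4 arrays were below 0.

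The MA-A1 values are described next by properties of the genes. As they chose the chromosome, these medians add no support for the shift. Members on the Watson strand had a median of 0.13 in MA-A1 (137 genes) and those on the Crick strand 0.15 (127 genes). The shortest, middle and longest members by gene length had medians of 0.10, 0.14 and 0.20 (88 genes each). Genes of the same length classes on other chromosomes had -0.03, -0.02 and 0.025, so longer genes were higher there too, by a smaller amount. The 10 tested genes left out by the rule had a median of 0.17.

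The position of the probe rows was set beside the shift because the table lists genes by systematic name in 16 runs of 484 rows. Apart from 3 members, chromosome XI rows lie in each run between those of chromosome X and chromosome XII. Within each of the 16 runs the MA-A1 median of the members exceeded that of the other genes, by 0.09 to 0.27. Chromosome X genes within 12 rows of a member had a median of 0.0025 in MA-A1 (153 genes, 50.3% above 0), and chromosome XII genes within 12 rows had 0.29 (154 genes, 92.9% above 0). Within the chromosome XI rows the medians were 0.23 (8 members), 0.15, 0.13, 0.13 and 0.15 for successive groups of 6 positions from the chromosome X side to the chromosome XII side. How spots were laid out on the slide is not given in the sources used here.

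**Figure D4:**
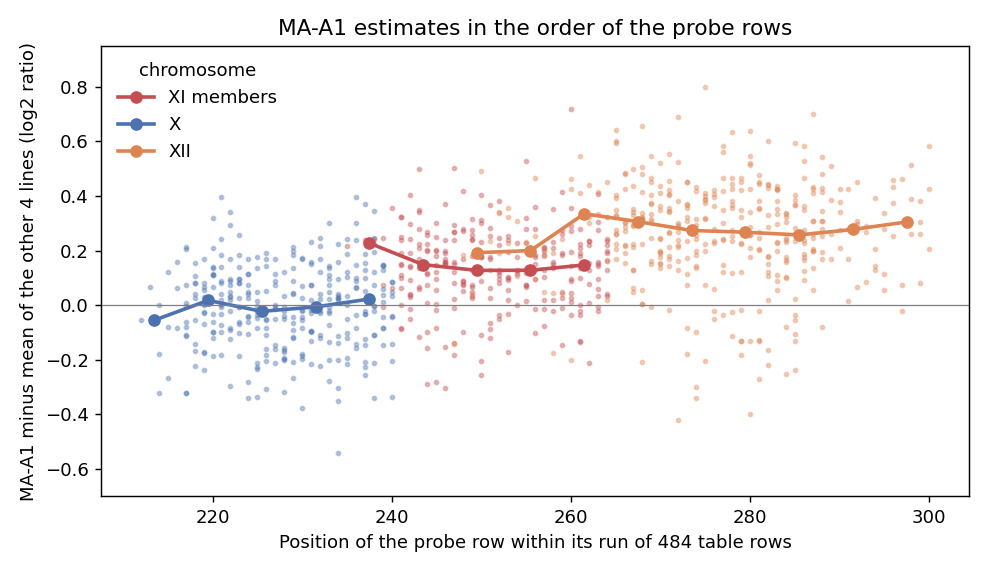
MA-A1 estimates (vertical axis, log2 ratio) against the position of the probe row within its run of 484 table rows (horizontal axis), for chromosome XI members, chromosome X and chromosome XII, with lines joining medians of 6 positions that hold at least 5 genes. The medians of chromosome XI members are 0.23 for the first 8 members and 0.13 to 0.15 in the later rows, with chromosome X, at a median of -0.0025 over all its genes, before them and chromosome XII, at 0.28, after them.

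MA-A1 was the highest of the 5 lines for 125 of the 264 members (47.3%) and the lowest for 10 (3.79%). It was the highest for 21.2% of the genes on all other nuclear chromosomes and for 17.3% of those on the 12 unshifted ones. The lowest line was MA-A3 for 76 members, MA-A8 for 64, MA-A4 for 62 and MA-A0 for 52. These shares restate the shift and were not tested. The range of a member's 5 estimates had a median of 0.43, against 0.43 for genes on other chromosomes.

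Each gene was then tested for any difference between lines by the moderated F test of limma, adjusted over all 5410 genes, and passed at an adjusted p of 0.05. The F test takes in the MA-A1 values that chose the chromosome. Its counts of members, here and in the lists below, are therefore a description only. Of the 264 members 30 passed (11.4%), 20 on the left arm and 10 on the right, against 19.4% of all genes tested and 12.5% of the 4101 genes on the 12 unshifted chromosomes. At an unadjusted p under 0.05 there were 77 (29.2%), against 34.7% of all genes. The range of the 5 estimates had a median of 0.93 over the 30. Of these 12 were highest in MA-A3 and 8 lowest there, while 12 were lowest in MA-A8 and 5 highest. Among the 1016 genes on other chromosomes that passed, 461 were highest and 291 lowest in MA-A3. In MA-A8 249 of those 1016 were lowest and 156 highest. Without MA-A0 against MA-A8 81 members passed, beside 34.8% of all genes. The count was 16 when MA-A3 against MA-A0 was left out (11.1% of all genes), 18 for MA-A3 against MA-A1 (11% of all genes), 18 for MA-A8 against MA-A1 (13% of all genes) and 20 for MA-A1 against MA-A4 (14.4% of all genes).

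In MA-A3 16 members were higher than the mean of the other lines (10.5% of all genes were) and 13 were lower (6.88% of all genes). In MA-A8 3 were higher (1.26% of all genes) and 9 lower (2.01% of all genes). In MA-A4 2 were higher (1.63% of all genes) and 2 lower (1.9% of all genes). In MA-A1 7 were higher (2.61% of all genes) and 0 lower (1.44% of all genes), with 67 and 3 at an unadjusted p under 0.05 (10.9% and 10.1% of all genes); this contrast was used to choose the chromosome and nothing is read from these counts. In MA-A0 0 members passed limma's test in either direction (0.222% of all genes higher and 0.111% lower), with 15 higher (5.68%) and 22 lower (8.33%) at an unadjusted p under 0.05, beside 7.04% and 8.24% of all genes. That count of 0 became 19 without MA-A0 against MA-A8, when 7.86% of all genes passed in MA-A0.

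The counts of single lines, both directions together, moved with single arrays. MA-A3 had 29 on all arrays (17.4% of all genes), and 12, 17 and 19 when its array with MA-A0, MA-A1 or MA-A8 was left out (10.5%, 10.7% and 12.5% of all genes). MA-A8 had 12 on all arrays (3.27% of all genes), and 1, 3 and 7 when its array with MA-A1, MA-A3 or MA-A4 was left out (0.555%, 1.44% and 1.52% of all genes). With the lines of the array of MA-A0 and MA-A8 exchanged 0 members passed limma's test in MA-A8 (0.0924% of all genes), so that every MA-A8 call named below ended, and 34 passed in MA-A0 (11.9% of all genes). MA-A4 had 4 on all arrays (3.53% of all genes), 0 without its array with MA-A1 (0.702%) and 2 without that with MA-A0 (1.77%). It had 1 without that with either MA-A3 or MA-A8 (0.795% and 1.96% of all genes). Its count was 9 without the array of MA-A0 and MA-A8 (5.75% of all genes). It was 2 when the array of MA-A1 and MA-A8, of MA-A0 and MA-A3 or of MA-A1 and MA-A3 was left out (2.31%, 2.5% and 2.42%). MA-A1 had 7 on all arrays (4.05% of all genes). It had 0 when its array with MA-A0, MA-A3, MA-A4 or MA-A8 was left out (0.0739%, 0%, 0.037% and 0.129% of all genes). Its count was 24 without the array of MA-A0 and MA-A8 (10.1% of all genes) and 13 without that of MA-A0 and MA-A4 (6.77%). It was 4 without that of MA-A3 and MA-A8 (3.14%) and 2 without that of MA-A0 and MA-A3 (1.57%). For the named genes the arrays whose loss ended a call are given with the call, in lines other than MA-A1. Calls in MA-A1 are not given gene by gene, as that contrast chose the chromosome.

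In the pair MA-A3 minus MA-A8 17 members were higher in MA-A3 (10.6% of all genes) and 15 lower (8.04% of all genes). Calls are given for this pair of lines only. They were not counted again with an array left out or with the lines of MA-A0 against MA-A8 exchanged. The fitted difference in this pair was largest for HAP4 at 1.27 ± 0.19, MCR1 at 1.22 ± 0.14 and PTR2 at 1.13 ± 0.15 among the higher members (adjusted p = 0.000467, 6.5e-05 and 0.000289). It was largest for SRL3 at -1.001 ± 0.139 and PHD1 at -0.88 ± 0.15 among the lower ones (adjusted p = 0.000304 and 0.00108).

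Of the 12 members with the widest ranges 8 had MA-A3 and MA-A8 at opposite ends, and the contrasts of these lines share the array that joins them. HAP4 encodes the activating subunit of the CCAAT-binding complex that switches on respiratory genes. In MA-A3 it was at 0.815 over MA-A0, 1.06 over MA-A1, 0.71 over MA-A4 and 1.04 over MA-A8. All 4 values were high, and the estimate was 0.91 ± 0.15 (limma, adjusted p = 0.000702). In MA-A8 HAP4 was at -0.19 over MA-A0, -0.94 over MA-A1, -1.04 over MA-A3 and -0.57 over MA-A4, with an estimate of -0.69 ± 0.15 (adjusted p = 0.0245). The 4 values of MA-A8 were all below 0, but this call ended without the array with MA-A1 or MA-A4 (adjusted p up to 0.315). The estimates of the other 3 lines lay between -0.14 and 0.

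MCR1, which encodes a mitochondrial NADH-cytochrome b5 reductase, had the same order of lines at its ends. In MA-A3 it was at 0.82 over MA-A0, 0.59 over MA-A1, 0.54 over MA-A4 and 1.47 over MA-A8 (estimate 0.86 ± 0.11, adjusted p = 0.000111). Its MA-A8 values were -0.54 over MA-A0, -0.26 over MA-A1 and -0.41 over MA-A4 beside the array shared with MA-A3 (estimate -0.67 ± 0.11, adjusted p = 0.0061). No array of MA-A3 was below 0 and none of MA-A8 was above 0. The MA-A8 call ended without that shared array (adjusted p = 0.0537).

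MBR1, linked to mitochondrial function, was at 0.59 over MA-A0, 0.15 over MA-A1, 0.56 over MA-A4 and 1.10 over MA-A8 in MA-A3 (estimate 0.60 ± 0.09, adjusted p = 0.000488). In MA-A8 its estimate was -0.48 ± 0.09 (adjusted p = 0.0145), a call that ended without the array with MA-A1 or MA-A3 (adjusted p up to 0.105). The glycolytic enzyme gene GPM1, phosphoglycerate mutase, went the other way in MA-A3, at -0.10 over MA-A0, -0.63 over MA-A1, -1.35 over MA-A4 and -1.02 over MA-A8. Its 4 values were all below 0 but ranged widely, and the estimate of -0.78 ± 0.17 (adjusted p = 0.00417) missed the threshold without MA-A3 against MA-A1 (adjusted p = 0.0758). Of the 19 tested members listed for carbon metabolism and respiration 5 were higher and 1 lower in MA-A3, and 3 were lower in MA-A8. The shares of all genes were 10.5% and 6.88% in MA-A3 and 2.01% in MA-A8. The medians of the list were 0.12 in MA-A3 and -0.12 in MA-A8, against -0.01 and -0.015 for the genes on other chromosomes. The 5 also include UGP1 and GLG1, genes of UDP-glucose and glycogen synthesis, named after their values were seen.

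Cell wall and surface genes were also among the members with wide ranges. PTR2 encodes the di- and tripeptide permease. In MA-A3 it was at 0.70 over MA-A0, 0.84 over MA-A1, 0.53 over MA-A4 and 1.17 over MA-A8 (estimate 0.81 ± 0.12, adjusted p = 0.000353). In MA-A8 it was at -0.55 over MA-A0, -0.49 over MA-A1 and -0.17 over MA-A4 on the arrays without MA-A3 (estimate -0.59 ± 0.12, adjusted p = 0.0179). All arrays of MA-A3 were above 0 and all of MA-A8 below. The MA-A8 call ended without the array with MA-A1 or MA-A3 (adjusted p up to 0.202).

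SRL3 ran opposite to PTR2. In MA-A3 it was at -0.83 over MA-A0, -0.62 over MA-A1, -0.66 over MA-A4 and -0.89 over MA-A8 (estimate -0.75 ± 0.11, adjusted p = 0.000293), a narrow spread. In MA-A8 it was at 0.24 over MA-A0, 0.75 over MA-A1, 0.89 over MA-A3 and 0.12 over MA-A4 (estimate 0.50 ± 0.11, adjusted p = 0.0242). The MA-A8 call ended without the array with MA-A1, MA-A3 or MA-A4 (adjusted p up to 0.304). SRL3 and PTR2 lie close together on the right arm, 2 places apart in the order of members, and had opposite signs in both lines.

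CWP2, a mannoprotein anchored in the cell wall, rested on few arrays. In MA-A8 it was at -2.03 over MA-A0, 0.23 over MA-A1, -0.45 over MA-A3 and -0.30 over MA-A4 (estimate -0.64 ± 0.15, adjusted p = 0.0333). The value over MA-A0 lay far below the others and came from the array that disagreed with the rest. The call ended in 6 of the 10 fits that left out 1 array (any of the 4 with MA-A1, or that of MA-A8 with MA-A0 or MA-A3), with estimates from -0.88 to -0.35 and adjusted p-values up to 0.177, and with the lines of that array exchanged the estimate was 0.12. In MA-A3 CWP2 was at 0.97 over MA-A0, 0.85 over MA-A1, 0.06 over MA-A4 and 0.45 over MA-A8 (estimate 0.58 ± 0.15, adjusted p = 0.0137), and this call ended without the array with MA-A0 or MA-A8 (adjusted p up to 0.165) and with the exchanged lines (adjusted p = 0.104).

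SFK1, a plasma membrane protein of phosphoinositide signalling, was at 0.66 over MA-A0, 0.27 over MA-A1, 0.66 over MA-A4 and 0.58 over MA-A8 in MA-A3 (estimate 0.54 ± 0.09, adjusted p = 0.000991). PIR1, a heat-stable wall glycoprotein, was lower in MA-A8 at -0.54 ± 0.12 (adjusted p = 0.0257), a call that ended without any 1 of the arrays of MA-A8 with MA-A1, MA-A3 or MA-A4, with adjusted p-values up to 0.309. PIR1 was higher in MA-A3 at 0.37 (adjusted p = 0.0467), a call that ended in 6 of the 10 fits, those without any 1 array of MA-A3 or of MA-A4 other than MA-A0 against MA-A4 (adjusted p up to 0.347). Of the 11 tested members of the cell wall list 5 passed the F test (19.4% of all genes did). The list includes SRL3 and SFK1, which are not wall proteins, and both are among the 5. In MA-A3 3 were higher and 2 lower (10.5% and 6.88% of all genes), and in MA-A8 1 was higher and 2 lower (1.26% and 2.01% of all genes). SRL3 is 1 of the 2 lower in MA-A3 and the 1 higher in MA-A8, and SFK1 is 1 of the 3 higher in MA-A3.

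**Figure D5:**
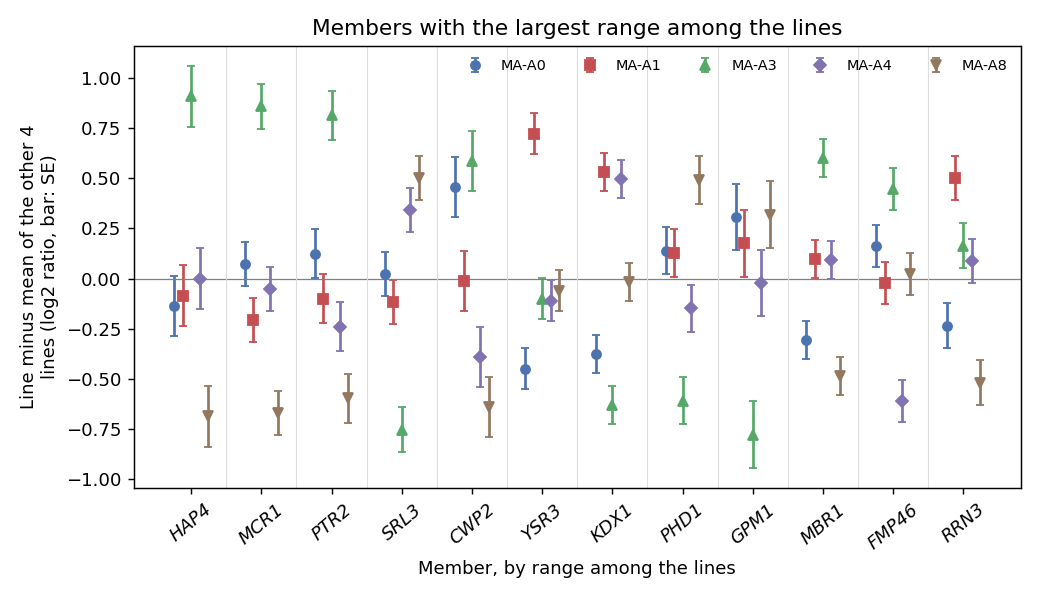
Estimates with SE (vertical axis, line minus the mean of the other 4 lines, log2 ratio) in the 5 lines for the 12 members with the largest range among those measured on all 10 arrays and passing the F test (horizontal axis). HAP4, MCR1, PTR2 and MBR1 are highest in MA-A3 and lowest in MA-A8, SRL3 is lowest in MA-A3 and highest in MA-A8, and YSR3, at 0.72, stands highest in MA-A1.

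Members of the stress and redox list differed from one another in direction. KDX1 encodes a kinase-like protein of the cell wall integrity pathway. In MA-A3 it was at -0.33 over MA-A0, -0.87 over MA-A1, -0.80 over MA-A4 and -0.53 over MA-A8 (estimate -0.63 ± 0.09, adjusted p = 0.000334). In MA-A4 it was at 0.82 over MA-A0, -0.03 over MA-A1, 0.80 over MA-A3 and 0.39 over MA-A8 (estimate 0.49 ± 0.09, adjusted p = 0.0127), and in MA-A1 the estimate was 0.53 ± 0.09. MA-A1 and MA-A4 were both high, and the array that joins them showed them at nearly the same level. The MA-A4 call ended without any 1 of the 4 arrays of MA-A4 (adjusted p up to 0.075).

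PHD1, a transcription factor gene of pseudohyphal growth, was at -0.83 over MA-A0, -0.67 over MA-A1, -0.44 over MA-A4 and -0.49 over MA-A8 in MA-A3 (estimate -0.61 ± 0.12, adjusted p = 0.00199). In MA-A8 it was at 0.68 over MA-A0, 0.38 over MA-A1, 0.49 over MA-A3 and 0.41 over MA-A4 (estimate 0.49 ± 0.12, adjusted p = 0.0361). Each line kept its sign on all 4 arrays. The MA-A8 call ended in 7 of the 10 fits that left out 1 array (adjusted p up to 0.33). It held without the array of MA-A4 with MA-A0 or MA-A3, or that of MA-A3 with MA-A8. GPX1, a glutathione peroxidase gene, was higher in MA-A3 at 0.53 ± 0.11 (adjusted p = 0.003), with array values of 0.345, 0.28, 0.81 and 0.68 over MA-A0, MA-A1, MA-A4 and MA-A8. LHS1, a chaperone gene of the endoplasmic reticulum, passed the F test (adjusted p = 0.0455) and was lowest in MA-A4 at -0.32 ± 0.09, which did not pass (adjusted p = 0.0721). Of the 10 tested members of this list 2 were higher and 2 lower in MA-A3 (10.5% and 6.88% of all genes).

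YSR3 had the highest MA-A1 estimate of the members with values on all 10 arrays. It encodes a sphingoid base phosphate phosphatase. In MA-A1 it was at 0.98 over MA-A0, 0.83 over MA-A3, 0.43 over MA-A4 and 0.64 over MA-A8, with an estimate of 0.72 ± 0.10. All 4 arrays were high. Its estimate in MA-A0 was the lowest of those members there, at -0.45 ± 0.10, and did not pass (adjusted p = 0.0878).

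RRN3, an initiation factor of RNA polymerase I, was highest in MA-A1 and lowest in MA-A8. In MA-A8 it was at -0.49 over MA-A0, -0.97 over MA-A1, -0.41 over MA-A3 and -0.20 over MA-A4 (estimate -0.52 ± 0.11, adjusted p = 0.0212). In MA-A1 it was at 0.53 over MA-A0, 0.15 over MA-A3 and 0.35 over MA-A4 on the arrays without MA-A8, with an estimate of 0.50 ± 0.11. The MA-A8 values were all below 0 and the MA-A1 values all above. The MA-A8 call ended without MA-A8 against MA-A3, MA-A0 against MA-A8 or MA-A8 against MA-A1, with adjusted p-values up to 0.245.

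FMP46, a mitochondrial protein gene, was the lowest in MA-A4 of the members with values on all 10 arrays. It was at -1.0 over MA-A0, -0.52 over MA-A1, -0.57 over MA-A3 and -0.34 over MA-A8 (estimate -0.61 ± 0.10, adjusted p = 0.00861), and it missed the threshold without MA-A1 against MA-A4 (adjusted p = 0.0524). In MA-A3 it was at 0.34 over MA-A0, 0.43 over MA-A1, 0.57 over MA-A4 and 0.44 over MA-A8 (estimate 0.45 ± 0.10, adjusted p = 0.0077). All 4 arrays of MA-A4 were below 0 and all 4 of MA-A3 above. The MA-A3 call ended without the array with MA-A0 or MA-A8 (adjusted p up to 0.11).

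In the list of transporters and surface proteins for nutrient uptake 3 of 10 tested members passed the F test, against 19.4% of all genes. TRK2, a potassium transporter gene, was at 0.30 over MA-A0, 0.58 over MA-A3, 0.39 over MA-A4 and 0.39 over MA-A8 in MA-A1, an even set of values (estimate 0.41 ± 0.10). GEX2, a proton and glutathione exchanger gene with a near-identical copy, was measured on 9 arrays and passed the F test (adjusted p = 0.0312), with MA-A4 lowest at -0.47 ± 0.13 (adjusted p = 0.0783). The vacuolar zinc exporter gene ZRT3 was at -0.22 ± 0.09 in MA-A4 and did not pass (adjusted p = 0.25).

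Among 15 tested members of amino acid, nitrogen, nucleotide and sulphur metabolism 0 passed limma's F test (19.4% of all genes did), while 2 were lower in MA-A3 (6.88% of all genes were). They were URA1, dihydroorotate dehydrogenase of pyrimidine synthesis (-0.55 ± 0.13, adjusted p = 0.00987), and TRP3 of tryptophan synthesis (-0.38 ± 0.10, adjusted p = 0.0205). The URA1 call ended without the array of MA-A3 with MA-A0, MA-A1 or MA-A8 (adjusted p up to 0.100), and the TRP3 call without any 1 of the 4 arrays of MA-A3 (adjusted p up to 0.196). In MA-A1 12 of the 15 were above 0, with a median of 0.13. SIS2, a regulatory subunit of a protein phosphatase, was at 0.23 ± 0.10 there, and SRY1, which encodes hydroxyaspartate dehydratase, at 0.09 ± 0.13.

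Of 11 tested lipid and fatty acid members 10 were above 0 in MA-A1, with a median of 0.21. They include PXA2, a peroxisomal transporter of fatty acids (0.41 ± 0.11), FAT3, which acts in fatty acid uptake (0.30 ± 0.10), and FAS1, the beta subunit of fatty acid synthase (0.27 ± 0.10). TGL4, a triacylglycerol lipase gene, passed the F test and was lower in MA-A8 at -0.47 ± 0.11 (adjusted p = 0.036). This call ended without the same 6 arrays as that of CWP2, with adjusted p-values up to 0.305. It was higher in MA-A3 at 0.37 (adjusted p = 0.0347), and that call ended in 5 of the 10 fits, those without the array of MA-A3 with MA-A0, MA-A1 or MA-A8, or that of MA-A1 with MA-A4 or MA-A8 (adjusted p up to 0.345). The MA-A3 call also ended with the lines of MA-A0 and MA-A8 exchanged on their array (adjusted p = 0.092).

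Ribosome biogenesis and translation members had a median of 0.20 in MA-A1, with 17 of 19 above 0. The small-subunit assembly genes LTV1 and DHR2 were at 0.38 ± 0.13 and 0.32 ± 0.11. TMA19, a ribosome-associated protein gene, was lower in MA-A3 at -0.38 ± 0.11 (adjusted p = 0.0261), and the call ended without MA-A4 against MA-A3, MA-A3 against MA-A0 or MA-A3 against MA-A1 (adjusted p up to 0.231). Of these 19 members 1 was lower in MA-A3 and 1 in MA-A8 (6.88% and 2.01% of all genes).

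Genes of DNA replication, repair and chromosome segregation had 12 of 13 members above 0 in MA-A1, with a median of 0.095, and 0 passed limma's F test (19.4% of all genes did). The dynein heavy chain gene DYN1 was at 0.18 ± 0.10 and the silencing gene SIR1 at 0.28 ± 0.11. The primase subunit gene PRI2 was at 0.09 ± 0.11 and the histone chaperone gene NAP1 at 0.02 ± 0.09. Trafficking genes had a median of -0.004 in MA-A1, with 5 of 10 above 0. SAC1, the phosphoinositide phosphatase gene, passed the F test (adjusted p = 0.0493) and was at -0.05 over MA-A0, 0.63 over MA-A3, -0.07 over MA-A4 and 0.70 over MA-A8 in MA-A1, while the ESCRT-linked gene DID2 was at -0.01 ± 0.10. Over all 264 members 82.2% were above 0 in MA-A1. The lists are small and were chosen with results of these data known, and differences between them were not tested.

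Among the members with values on all 10 arrays, a pair had extreme estimates in a line with 1 of that line's 4 arrays far from the rest. TOF2, a gene of ribosomal DNA silencing, had the highest MA-A0 estimate, 0.97 ± 0.48, from values of 0.08 over MA-A1, -0.365 over MA-A3, 3.57 over MA-A4 and 0.59 over MA-A8. NTR2, a splicing factor gene, had the lowest MA-A3 estimate, -0.87 ± 0.41, from 0.145 over MA-A0, -0.05 over MA-A1, -3.52 over MA-A4 and -0.06 over MA-A8. Neither passed (adjusted p = 0.355 and 0.178). Another array was far from 0 too: TOF2 was at 3.11 for MA-A4 over MA-A3, and NTR2 at 1.92 for MA-A0 over MA-A4. For MA-A4 over MA-A1 and MA-A8 the values were -0.02 and 0.18 (TOF2) and -0.26 and -0.25 (NTR2). The far values all lay toward the Cy5 line of their arrays, and the cause was not tested.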

How the data were processed

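The values deposited by the authors, 1 for each array and probe row, were taken as log2 ratios of Cy5 to Cy3. RNA was labelled with a dendrimer kit, per the labels. Scanner, background correction and normalization are not stated there. Of 7744 probe rows 872 are empty, with values on 6282 to 6824 rows per array from -5.54 to 4.17. Array medians of -0.84 to 0.41 show that the arrays had not been centred. Of 6116 rows with a named gene 6111 matched a gene ID in the R64 annotation (strain S288C), which supplied names, order, strand and length; 1628 rows have no name and were left out. Rows of a gene were averaged.

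Each array was centred on the median of the genes tested. A linear model of the Cy5 line minus the Cy3 line with a dye term was fitted to every gene with values on at least 8 arrays (5410 genes) in R 4.3.3 by limma 3.58.1 and statmod 1.5.0, leaving 5 residual degrees of freedom and a prior worth 8.87. P-values were adjusted by Benjamini and Hochberg's method over every gene tested in that comparison. The fit was tested on simulated data.

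The members and the 9 lists of functions were chosen with earlier results of these data known. Genes are named by a rule: of the members with values on all 10 arrays, the 12 with the largest range that passed the F test, the highest and lowest in each line, those at the ends and beside the centromere, and up to 4 of each list with the smallest F-test p-value, the last irrespective of missing arrays. PET10 was not matched by symbol. Alternatives were no centring, centring on other genes or within blocks, no dye term, other minimum numbers of arrays, the lines of MA-A0 against MA-A8 exchanged, other variance priors, and leaving out each array.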

Additional observations from a re-analysis of the deposited data

Results flagged for a closer look

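Of 64 sets of 4 array values examined, 3 held a value set apart from the other 3 by more than Dixon's test allows, about the number that chance gives at 1 in 20 sets. The chromosome XI difference in MA-A8 was -0.22 on the array with MA-A1, against -0.01 on the nearest of its other arrays. That value is the one of MA-A1 over MA-A8 with its sign turned. It belongs to the MA-A1 shift that chose the chromosome, so this flag restates the shift and nothing is read from it. NTR2 in MA-A3 was at -3.52 on the array with MA-A4, with its nearest value at -0.06. SIS2 in MA-A1 was at -0.18 on the array with MA-A3, with its nearest value at 0.33.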

How the results depend on the processing

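The chromosome XI differences and the left minus right differences in the 5 lines stayed within 1 SD of their arrays under every alternative. In MA-A1 the shift was 0.125 to 0.170 when 1 array was left out, and in MA-A0, MA-A3, MA-A4 and MA-A8 the ranges were -0.021 to 0.004, -0.056 to -0.020, -0.075 to -0.012 and -0.048 to 0.006. Counts of members moved more. The F test passed 6 members with values as deposited (2.68% of all genes), 17 without the dye term (10.6%), 64 with the lines of MA-A0 against MA-A8 exchanged (28.4%), 0 with an unmoderated test (0.0555%) and 52 with centring within blocks of rows (25.5%), which was chosen after seeing the data. Members passing in either direction are given next with the share of all genes in brackets. With values as deposited they were 1 in MA-A0 (0.0924%), 0 in MA-A1 (0.0924%), 5 in MA-A3 (3.25%), 0 in MA-A4 (0.0739%) and 0 in MA-A8 (0.277%). Without the dye term they were 2 in MA-A1 (0.647%), 2 in MA-A4 (1.18%) and 5 in MA-A8 (1.53%). With those lines exchanged they were 34 in MA-A0 (11.9%), 13 in MA-A1 (5.82%) and 0 in MA-A8 (0.0924%). The unmoderated test gave 0 in MA-A1 (0%), 17 in MA-A3 (10.7%), 0 in MA-A4 (0.0555%) and 0 in MA-A8 (0%). Centring within blocks gave 14 in MA-A1 (5.58%) and 8 in MA-A4 (4.95%). Leaving out 1 array gave 16 to 81 for the F test (11% to 34.8% of all genes) and 0 to 19 in MA-A0 (0% to 7.86%). The ranges were 0 to 24 in MA-A1 (0% to 10.1%) and 12 to 40 in MA-A3 (10.5% to 23.1%). They were 0 to 9 in MA-A4 (0.702% to 5.75%) and 1 to 14 in MA-A8 (0.555% to 4.95%). Of 31 calls of named genes in single lines, 27 were lost with values as deposited and 24 with the unmoderated test. Without the dye term 13 were lost, with centring within blocks 1, and with those lines exchanged 11. The 11 leave out CWP2 in MA-A8, whose call also ended under that exchange, as its estimate changed sign to 0.12. The 31 include YSR3 and TRK2 in MA-A1, the contrast that chose the chromosome. These were lost in 4 and 5 of the 10 fits that left out 1 array. With 1 array left out TOF2 in MA-A0 ran from -0.002 to 1.54 and NTR2 in MA-A3 from -1.47 to 0.11. The causes were not tested. Each value pairs 2 lines on 1 array, and the fit used that pairing. No further pairing by replicate was possible because the labels give no replicate numbers and each pair of lines shares 1 array. Weak signals are limited by the 10 arrays, and signal over background is not given in the table.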
